A study of Mus musculus with 84 samples.

Results

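The 9 genes described here carry the insulin signal from the surface of the adipocyte to glucose uptake: Insr, Irs1, Irs2, Pik3r1, Pik3ca, Akt2, Tbc1d4, Slc2a4 and Cav1. They were chosen by name for their place in the pathway, and make up 9 of the 21851 protein-coding genes of the GENCODE annotation of GRCm38. For each gene the called peaks of 4 histone marks were read in all 84 libraries, at its promoters, taken as 2 kb either side of each protein-coding start site, and in the gene body with 50 kb of flank on either side. The study asked whether adipocytes keep chromatin changes of obesity after weight has been lost. Nuclei were taken from the snap-frozen epididymal fat of AdipoERCre x NuTRAP mice, in which a Cre under an adipocyte promoter, switched on by tamoxifen given to young mice before the diets, labels adipocyte nuclei with biotin so that streptavidin beads can hold them. CUT&Tag, which tethers a cutting and tagging transposase to an antibody, was then run for H3K4me3 in 21 libraries, H3K27ac in 21, H3K4me1 in 22 and H3K27me3 in 20. All groups carried both transgenes and had received tamoxifen, and the labels give the background of the mice as C576BL6.

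The diet groups held 2 or 3 libraries each per mark, which the labels call biological replicates. In the cohort of 12 weeks of diet, H mice were 18 weeks old after 12 weeks on a high-fat diet with 60% of its energy from fat, and their controls C were 18 weeks old on a chow with 10%. For HC, 8 weeks of chow came after the 12 weeks of high-fat diet, to an age of 26 weeks, which was also that of their chow controls CC_s. In the cohort of 25 weeks, HH mice were 31 weeks old after 25 weeks of high-fat diet, with CC_l as chow controls of that age. For HHC, 25 weeks of high-fat diet were followed by 8 weeks of chow, to an age of 39 weeks, which was also that of the controls CCC. H and HH were obese when sampled, whereas HC and HHC had lost weight. Below, the obesity difference is the mean of H minus C and HH minus CC_l, and the weight-loss difference is the mean of HC minus CC_s and HHC minus CCC.

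Insulin binds a receptor tyrosine kinase, the product of Insr, which phosphorylates the docking proteins IRS1 and IRS2. These recruit phosphoinositide 3-kinase, whose regulatory and catalytic subunits are encoded by Pik3r1 and Pik3ca, and its lipid product activates the kinase AKT2. AKT2 phosphorylates and inhibits TBC1D4 (also called AS160), a Rab GTPase-activating protein that otherwise holds vesicles of the glucose transporter GLUT4, the product of Slc2a4, inside the cell, and caveolin 1, from Cav1, forms the caveolae in which part of the insulin receptor of adipocytes resides. H3K4me3 marks active and poised promoters, H3K27ac active promoters and enhancers, H3K4me1 enhancers and promoter borders, and H3K27me3 is the repressive mark of the Polycomb complexes.

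Of the 9 genes, 7 matched RefSeq promoter sequences of GRCm38.p6 (12 promoters, each from 250 bases before to 50 after a start site), and Insr and Slc2a4 did not. The promoters of Irs1, Irs2 and Pik3r1 are printed because the largest differences below lie at these genes. Each sequence runs 5′ to 3′ on the strand of its gene, and capitals mark, on either strand, the GC box with the letters GGGCGG, the CCAAT box, the E-box with the letters CACGTG, the FOXO element with the letters GTAAACA and the TATA box with the letters TATAAA. Irs1 is on the minus strand at chr1:82291390-82291689, Irs2 on the minus strand at chr8:11008880-11009179, and the promoters of the long and the internal start of Pik3r1 on the minus strand at chr13:101768168-101768467 and chr13:101692581-101692880.
Irs1 promoter: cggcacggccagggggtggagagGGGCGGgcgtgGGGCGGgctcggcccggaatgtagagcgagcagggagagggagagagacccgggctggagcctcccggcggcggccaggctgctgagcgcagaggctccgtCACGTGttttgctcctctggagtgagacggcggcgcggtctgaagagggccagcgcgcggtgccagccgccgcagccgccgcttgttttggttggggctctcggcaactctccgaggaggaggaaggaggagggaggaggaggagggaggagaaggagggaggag
Irs2 promoter: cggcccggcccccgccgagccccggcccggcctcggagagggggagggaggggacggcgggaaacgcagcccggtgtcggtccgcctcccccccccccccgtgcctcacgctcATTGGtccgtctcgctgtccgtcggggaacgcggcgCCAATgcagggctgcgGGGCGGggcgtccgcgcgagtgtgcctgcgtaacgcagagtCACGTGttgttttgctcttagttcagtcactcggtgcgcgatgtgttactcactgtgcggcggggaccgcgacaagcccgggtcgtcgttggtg
Pik3r1 long promoter: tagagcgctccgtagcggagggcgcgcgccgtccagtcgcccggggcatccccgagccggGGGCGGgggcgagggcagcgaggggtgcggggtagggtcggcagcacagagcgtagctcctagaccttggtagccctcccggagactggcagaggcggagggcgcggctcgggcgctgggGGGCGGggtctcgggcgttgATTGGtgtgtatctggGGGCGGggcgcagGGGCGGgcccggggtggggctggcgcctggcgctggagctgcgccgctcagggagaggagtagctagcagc
Pik3r1 internal promoter: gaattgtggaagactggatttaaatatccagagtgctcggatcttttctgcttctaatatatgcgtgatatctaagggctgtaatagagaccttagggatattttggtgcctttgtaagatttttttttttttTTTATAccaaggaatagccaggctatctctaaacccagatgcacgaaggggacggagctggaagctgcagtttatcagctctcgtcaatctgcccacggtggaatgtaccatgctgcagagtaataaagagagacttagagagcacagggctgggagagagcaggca

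The Irs1 promoter held 28 CpG and was 71.3% GC, with 2 GC boxes and 1 E-box, and the Irs2 promoter held 41 CpG and was 72% GC, with 1 GC box, 2 CCAAT boxes and 1 E-box. The long promoter of Pik3r1 held 34 CpG, 4 GC boxes and 1 CCAAT box at 75.7% GC, against 6 CpG and a single TATAAA at 43.7% GC at the internal promoter. The median of all 32851 promoters was 7 CpG and 52.7% GC. Over those promoters the GC box occurred in 35.7%, CCAAT in 37.4%, the E-box in 7.15%, the FOXO element in 3.65% and TATAAA in 13.6%. A match says only that these letters are present.

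Libraries differed in how much of the genome was called, which bears on every width below. Peaks per library numbered 11248 to 41975 for H3K4me3, 12173 to 41988 for H3K27ac, 14484 to 40681 for H3K4me1 and 21807 to 46396 for H3K27me3. Peak lists give no read total, so depth was unknown and a promoter without a peak is not shown to lack the mark. The H libraries were thin: H3K4me3 peaks covered 11.02 to 30.2 Mb in H against 41.02 to 53.3 Mb in C, and H3K27ac peaks 9.58 to 24.4 Mb against 42.7 to 49.0 Mb. Of the markers of the labelled cell type, adipocytes, an H3K4me3 peak lay at 8 to 12 of 12 genes per library and an H3K27ac peak at 8 to 12. Markers of other cells also moved with the diets. The summed H3K27ac width at 10 macrophage genes was 14.2 to 28.3 kb in HH against 6.78 to 7.58 kb in CC_l, and the sum at 12 adipocyte genes was 44.9 kb in HH replicate 1, with 8 of the 12 marked, against 202 and 219 kb in the other HH libraries. Fewer adipocyte nuclei and less mark per nucleus cannot be told apart in such samples. For 4 H3K4me3 libraries (CC_l replicate 2, HH replicates 2 and 3 and CCC replicate 3) the treatment field of the labels named another group than the title. Titles were used, and for no other mark did the fields differ.

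Peaks of the active marks lay at nearly all of these promoters in nearly all libraries. All 9 genes carried an H3K4me3 peak in 21 of 21 libraries, and an H3K27ac peak was present in 21 of 21 at Insr, Akt2, Pik3r1, Tbc1d4 and Cav1, in 20 at Slc2a4 and Pik3ca, and in 18 at Irs1 and Irs2. H3K4me1 varied more, from 22 of 22 libraries at Akt2 to 11 at Irs1 and 7 at Tbc1d4. Presence therefore says little about the diets, and the summed width of the peaks that overlap a promoter, each counted over its whole length, was compared by limma on log2(width + 500 bp) over all genes with a peak in at least 3 libraries. Adjusted p-values below are Benjamini-Hochberg values over all genes of that fit, called under 0.05.

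After 12 weeks of high-fat diet the H3K4me3 peaks were narrower at most of the pathway. H minus C was negative at all 9 genes and was called at 6, namely Insr, Irs1, Irs2, Akt2, Tbc1d4 and Slc2a4, where 14.1% of all genes tested were called lower. The median difference over the 9 genes was −1.14 on the log2 scale, and over all genes it was −0.62.

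At Insr, which encodes the insulin receptor, the peaks measured 5.33, 5.84 and 5.68 kb in C and 2.43, 2.59 and 2.12 kb in H. The groups were well apart, with a log2 difference of −1.09 (SE 0.213, limma adjusted p = 0.00597). Irs1, the docking protein whose promoter is printed above, had the largest difference of the 9 genes: 11.5, 12.2 and 11.3 kb in C fell to 2.95, 2.78 and 0.648 kb in H, by 2.37 on the log2 scale (SE 0.474, limma adjusted p = 0.00669). Its paralogue Irs2 measured 9.13, 9.40 and 10.99 kb in C and 2.20, 5.65 and 1.12 kb in H, with a difference of −1.78 (SE 0.543, limma adjusted p = 0.0383). H replicate 2 kept a broader Irs2 peak than the other H libraries, and no H value reached the lowest C value.

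**Figure D1:**
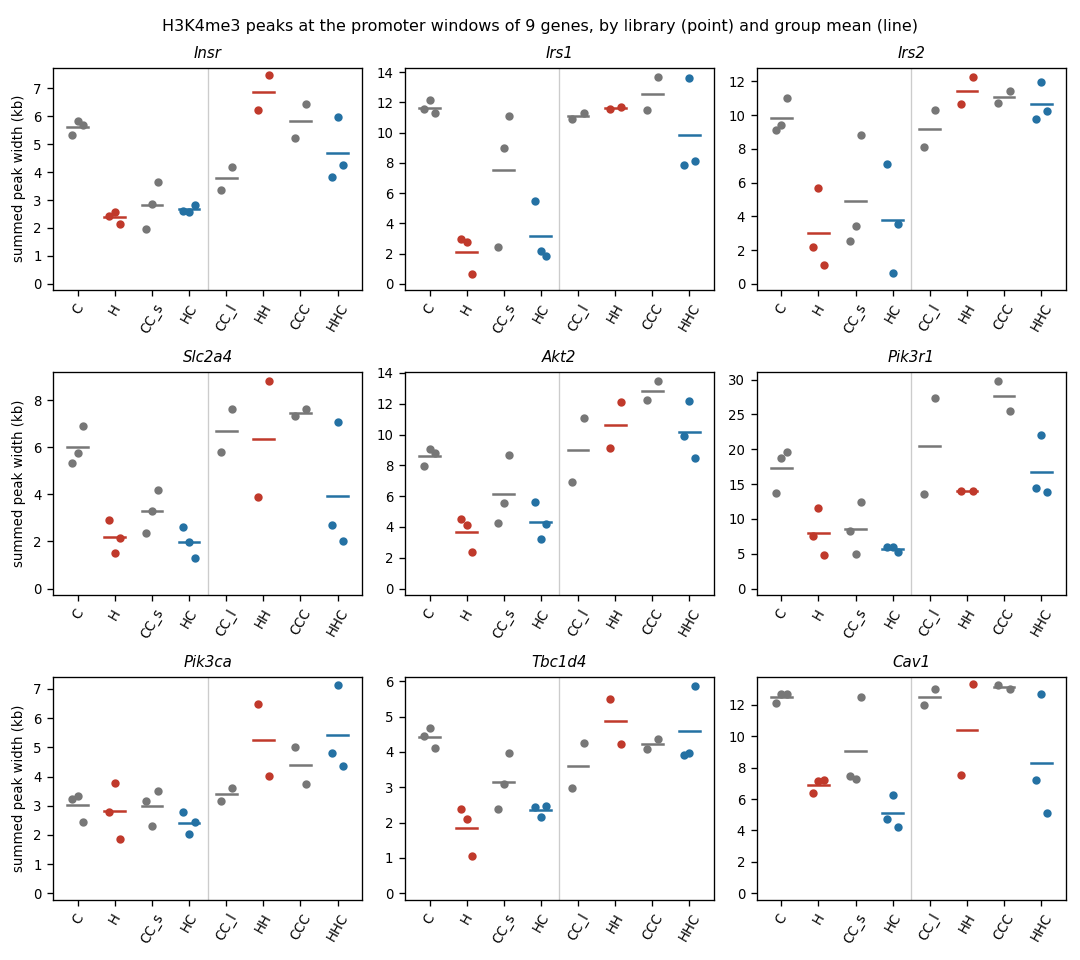
Summed width in kb (vertical axes) of the H3K4me3 peaks at the promoters of each of the 9 genes, by library (points) and mean (lines) of the 8 diet groups (horizontal axes). The 3 H libraries lie below the 3 C libraries in every panel but that of Pik3ca.

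Further down the pathway Akt2, Tbc1d4 and Slc2a4 were lower too, by less than Irs1 and Irs2. Akt2, the main AKT kinase of insulin-responsive tissue, had 7.94, 9.07 and 8.79 kb in C and 4.53, 4.13 and 2.35 kb in H, a difference of −1.17 (SE 0.295, limma adjusted p = 0.019). Tbc1d4, the substrate of AKT2 that restrains GLUT4 vesicles, had 4.44, 4.67 and 4.12 kb in C and 2.38, 2.11 and 1.07 kb in H, a difference of −1.11 (SE 0.244, limma adjusted p = 0.0102). At Slc2a4 itself the widths were 5.35, 5.76 and 6.89 kb in C and 2.91, 1.53 and 2.16 kb in H, with −1.29 (SE 0.361, limma adjusted p = 0.0279). In none of these genes did the H and C libraries overlap.

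The subunits of the lipid kinase and caveolin 1 were not called. Pik3r1, the regulatory subunit, has 2 promoter windows, and its width summed over both was the largest of the set in C. The sum was 13.8, 18.8 and 19.6 kb in C and 7.60, 11.5 and 4.77 kb in H (−1.14, limma adjusted p = 0.0569). Taken singly its windows were not the broadest, with medians over all libraries of 6.58 and 5.68 kb against 10.9 kb at Irs1. Pik3ca, the catalytic subunit, was alone in overlapping between the groups: 3.24, 3.35 and 2.44 kb in C and 2.80, 3.78 and 1.87 kb in H (−0.11, limma adjusted p = 0.74). Cav1 had 12.1, 12.7 and 12.7 kb in C and 6.40, 7.17 and 7.20 kb in H, separate groups with a difference of −0.81 (limma adjusted p = 0.081). Thus 8 of the 9 genes had every H value under every C value, as did 43.2% of all genes.

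Much of this separation was shared with the rest of the genome. When widths were quantile normalized between libraries, which gives every library the same distribution of widths, the median of all genes moved from −0.62 to 0.09 and that of the 9 genes from −1.14 to −0.49, and Irs1 alone was called (−1.64, limma adjusted p = 0.035). Insr then stood at −0.49 and Slc2a4 at −0.67. Insr and Irs1 were called in the fit whichever library was left out, and without C replicate 2 they were the only members called. Adipocyte markers moved along with these genes, their summed H3K4me3 width being 40.2 to 51.9 kb in H and 114 to 156 kb in C. The part of library depth and of cell make-up in the result was not tested.

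No H3K4me3 promoter width of the 9 genes was called in any other comparison. The share of all genes called was 0.706% for HH minus CC_l, 0.00685% for HC minus CC_s, 2.47% for HHC minus CCC, 0.39% for the obesity difference and 1.53% for the weight-loss difference. At an unadjusted p under 0.05 the same fits hold 1594 genes for the obesity difference and 1584 for weight loss. In the cohort of 25 weeks, HH values of Insr, Irs1, Irs2 and Pik3ca lay above every CC_l value, as did those of 42.1% of all genes, whose median difference was 0.25. For Insr the HH widths were 6.24 and 7.47 kb and the CC_l widths 3.37 and 4.20 kb. At Irs1 the groups were nearly level, with 11.6 and 11.7 kb in HH and 10.9 and 11.3 kb in CC_l.

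The cohorts could be compared directly. For Insr, H minus C was lower than HH minus CC_l by 1.87 on the log2 scale (SE 0.336, limma adjusted p = 0.0392), one of 27 of 14598 genes called in that test. The other 8 genes were not called. Of the 4 libraries that stand for the longer cohort in this test, 3 (all but CC_l replicate 1) are among those whose treatment field and title differ. With the groups of the treatment field the difference was −1.13 (limma adjusted p = 0.152), and after quantile normalization −0.93 (limma adjusted p = 0.412). With the replicate number within each cohort as a block it was −1.73 (limma adjusted p = 0.153). When libraries were left out in turn, Insr was still called without H replicate 1, H replicate 2 or CC_l replicate 2, and not without any of the other 7.

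For the weight-loss difference Slc2a4 (−0.82) and Cav1 (−0.74) had the lowest values of the 9 genes, neither of them called. Slc2a4 measured 2.60, 1.99 and 1.32 kb in HC against 2.36, 3.29 and 4.20 kb in CC_s, and 2.70, 7.05 and 2.00 kb in HHC against 7.30 and 7.60 kb in CCC. HHC replicate 2 lay near the controls and the other HHC libraries far below them, and HHC minus CCC was −1.02 (SE 0.403, limma adjusted p = 0.333). Cav1 showed the same split, with 7.20, 12.7 and 5.08 kb in HHC and 13.25 and 13.02 kb in CCC (−0.72, limma adjusted p = 0.53). Every HHC value of Slc2a4, Akt2, Pik3r1 and Cav1 was below every CCC value, as for 6.51% of all genes. Without HHC replicate 2, the weight-loss difference was called at Slc2a4 and Cav1. In HHC the adipocyte markers split the same way, at 119, 272 and 42.5 kb for replicates 1, 2 and 3, with CCC at 207 to 235 kb; their part in the result was not tested.

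H3K27ac, the mark of active promoters, was lower in H than in C at the same number of genes and with larger differences. The study describes running its assays on adipocytes from a shared fat depot, so the marks are not independent samples. H minus C was called lower at 6 of the 9 promoters, against 6.91% of all genes, and every H value was below every C value at 8 of the 9, against 38.2% of all genes. The median difference was −2.08 for the 9 genes and −0.75 for all genes.

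The promoters of the docking proteins had next to no H3K27ac peak in H. Irs2 measured 8.24, 11.1 and 5.64 kb in C, and 0.34 kb in H replicate 1 with no peak in the other H libraries, a difference of −3.84 (SE 0.773, limma adjusted p = 0.00843). Irs1 measured 6.53, 6.47 and 10.7 kb in C, and 0.513 kb, no peak and 0.746 kb in H, a difference of −3.25 (SE 0.8, limma adjusted p = 0.0208). Insr was lower as well, from 6.49, 5.31 and 3.44 kb to 1.12, 0.678 and 1.09 kb (−1.91, SE 0.446, limma adjusted p = 0.0182).

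**Figure D2:**
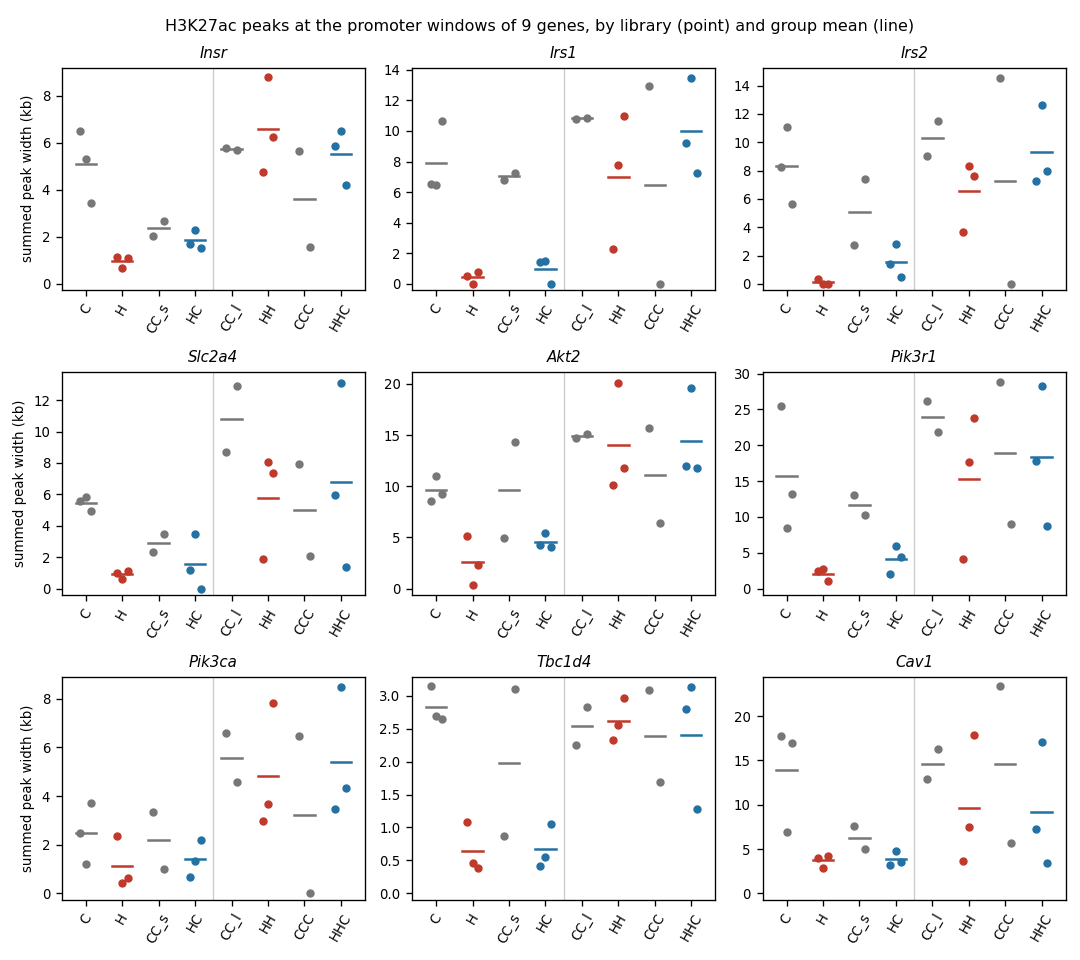
Summed width in kb (vertical axes) of the H3K27ac peaks at the promoters of the 9 genes, by library (points) and mean (lines) of the 8 diet groups (horizontal axes). Irs1 and Irs2 lie at 0 to 0.746 kb in H against 5.64 to 11.1 kb in C, and 1 of the 2 CCC libraries is thin.

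Among the later steps, Pik3r1 had 25.5, 8.44 and 13.2 kb in C and 2.4, 2.72 and 1.01 kb in H (−2.61, limma adjusted p = 0.0295). Akt2 had 8.55, 10.98 and 9.27 kb in C and 5.14, 0.305 and 2.27 kb in H (−2.11, limma adjusted p = 0.0437), and Tbc1d4 had 3.14, 2.69 and 2.64 kb in C and 1.08, 0.458 and 0.381 kb in H (−1.59, limma adjusted p = 0.0407). These 3 genes were called lower, and their groups did not overlap. Slc2a4, with 5.55, 5.80 and 4.92 kb in C and 1.02, 0.605 and 1.14 kb in H, missed the threshold (−2.08, limma adjusted p = 0.0668). Cav1 (−1.68, limma adjusted p = 0.0985) and Pik3ca (−0.93, limma adjusted p = 0.402) were not called either.

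Quantile normalization brought the median of all genes to 0.15 and that of the 9 genes to −0.71, and left Irs2 called (−2.93, limma adjusted p = 0.0339). No member was called when C replicate 1, C replicate 2 or H replicate 2 was left out, and 1 was called without H replicate 3. The adipocyte markers had a summed H3K27ac width of 18.1 to 53.9 kb in H and 124 to 163 kb in C, while the 10 macrophage genes had 0 to 6.77 kb in H and 5.19 to 6.31 kb in C. Their part in the result was not tested.

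No member was called at H3K27ac promoters in the remaining comparisons. The share of all genes called was 0.0237% for HH minus CC_l, 0% for HC minus CC_s, 4.34% for HHC minus CCC, 0.419% for the obesity difference and 0.0158% for weight loss. For HC minus CC_s, where no gene passed, 589 genes had an unadjusted p under 0.05. The obesity differences of Irs2 (−2.26, limma adjusted p = 0.0623), Pik3r1 (−1.77, limma adjusted p = 0.0887) and Irs1 (−2.04, limma adjusted p = 0.0908) came closest. In a two-sided exact permutation test within cohorts, which allows 200 labellings and no p below 0.005, the obesity difference had p = 0.015 for Irs2, 0.02 for Slc2a4 and 0.035 for Irs1, and no adjusted value passed the threshold.

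**Figure D3:**
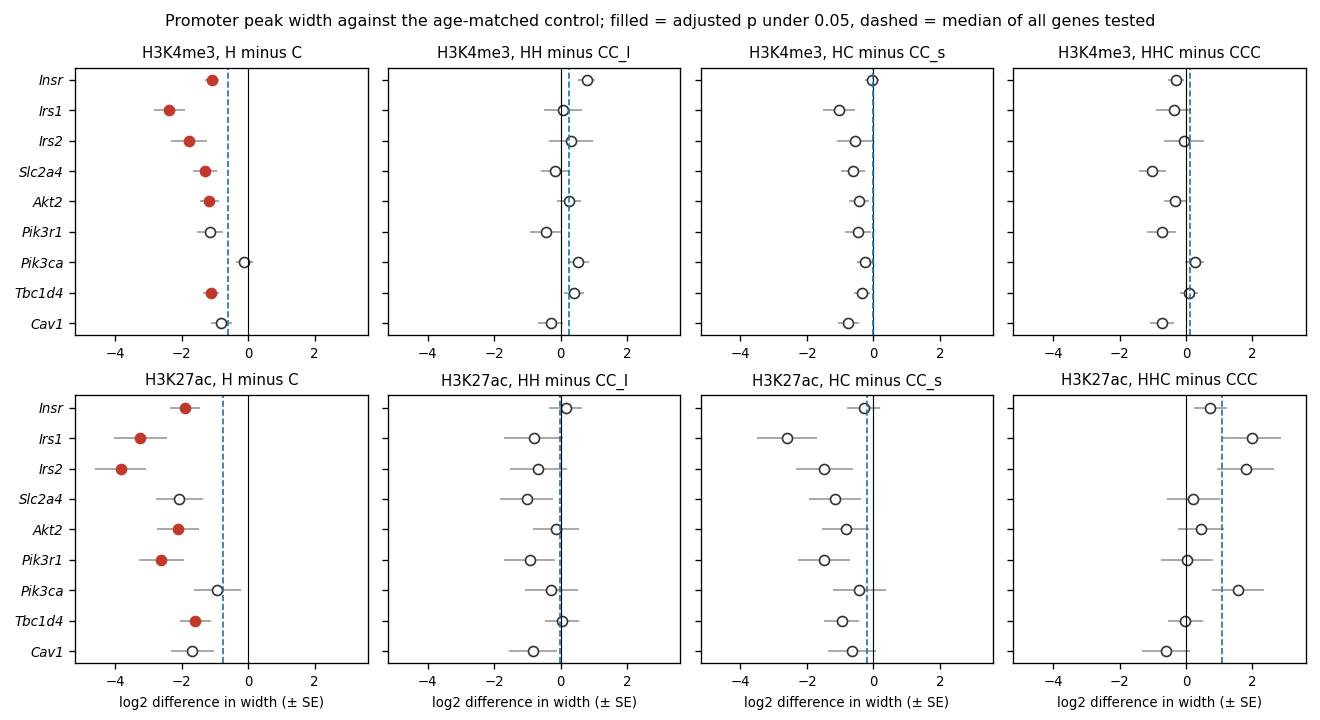
Log2 differences in promoter peak width (horizontal axes, ± SE from limma) of the 9 genes for each diet group against its control, for H3K4me3 and H3K27ac. Filled points have an adjusted p under 0.05 and dashed lines give the median of all genes, which lies at −0.62 for H3K4me3 and −0.75 for H3K27ac in H minus C, the only comparison with filled points.

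After weight loss the H3K27ac promoter widths of Irs1, Pik3r1 and Cav1 were below every CC_s value in every HC library, as for 16% of all genes. Slc2a4 overlapped its controls in both cohorts. Irs1 measured 1.45 and 1.46 kb with no peak in HC replicate 3, against 6.82 and 7.27 kb in CC_s, and 9.24, 13.5 and 7.27 kb in HHC against 12.97 kb and no peak in CCC. Slc2a4 measured 1.19 and 3.47 kb with no peak in HC replicate 3, against 2.31 and 3.48 kb in CC_s, and 5.98, 13.1 and 1.36 kb in HHC against 7.96 and 2.10 kb in CCC. The cohorts' differences at Irs1 stood −4.575 apart on the log2 scale (SE 1.265, limma adjusted p = 0.193), which was not called. CCC replicate 3 was thin, with 14915 H3K27ac peaks, and the median of all genes for HHC minus CCC was 1.09, above the 0.46 of the 9 genes. Without CCC replicate 1, so that the thin library was the only control, Insr, Irs1, Irs2 and Pik3ca were called higher in HHC.

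Away from promoters, H3K27ac coverage was lower in obese mice at several members. Coverage was the kb under peaks in the gene body and the 50 kb flanks, outside the promoter windows of every protein-coding gene, compared on log2(kb + 1 kb). H minus C was called lower at 7 of the 9 genes, all but Slc2a4 and Tbc1d4, against 17.8% of all genes, with a median of −2.28 against −0.71 for all genes. All 9 had every H value below every C value, as did 42.4% of all genes.

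The obesity difference over both cohorts was called lower at 4 of the 9 genes, against 7.04% of all genes. At Irs1 the coverage was 17.8, 13.2 and 16.6 kb in C and 2.37, 0 and 1.64 kb in H, then 21.3 and 17.2 kb in CC_l and 3.58, 12.1 and 15.0 kb in HH. Both obese groups lay below all their controls, and the obesity difference was −2.02 (SE 0.468, limma adjusted p = 0.02). HH lay wholly below CC_l at 14.8% of all genes, and H wholly below C at 42.4%. Pik3r1 had 54.5, 33.2 and 39.2 kb in C and 5.52, 5.45 and 2.03 kb in H, then 66.7 and 52.6 kb in CC_l and 32.5, 58.0 and 46.8 kb in HH, so that its cohorts differed in overlap, with an obesity difference of −1.74 (SE 0.414, limma adjusted p = 0.0219). For Irs2 the values were 39.9, 35.8 and 27.7 kb in C, 6.75, 3.02 and 4.67 kb in H, 37.3 and 50.7 kb in CC_l, and 11.5, 39.1 and 43.5 kb in HH (−1.65, SE 0.45, limma adjusted p = 0.0354). HH replicate 1 was the lowest of its group there.

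Insr, the last of the 4, had 26.6, 23.8 and 20.7 kb in C, 8.39, 2.65 and 2.78 kb in H, 36.7 and 35.8 kb in CC_l and 19.7, 24.1 and 29.8 kb in HH. No obese library reached its controls in either cohort, and the difference was −1.42 (SE 0.411, limma adjusted p = 0.0401). Insr and Irs1 were the only members with HH wholly below CC_l, as were 14.8% of all genes. The median of all genes in this contrast was −0.40. All 4 calls were lost after quantile normalization, and also with the replicate number within each cohort as a block in the fit. No member was called without C replicate 1, H replicate 2, CC_l replicate 1, CC_l replicate 2 or HH replicate 1. HH replicate 1 is the library with 44.9 kb at the adipocyte markers, and it also had 27.9 kb of H3K27ac at the 7 endothelial marker genes and 4.59 kb at the 6 lymphocyte genes, which were at 0 in every control group. The part of these cells in the result was not tested.

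H3K4me3 coverage away from promoters was called lower in H than in C at 7 genes, all but Irs1 and Cav1, against 22.5% of all genes, with differences from −1.55 at Pik3ca to −2.28 at Pik3r1 and a median of all genes of −0.65. After quantile normalization only Pik3r1 was called (−0.997, limma adjusted p = 0.0411). Neither the obesity difference, with 0.414% of all genes called, nor weight loss, with 5.42%, was called at any member. H3K27ac coverage was likewise not called at any member for weight loss, with 0.0243% of all genes called. Every HC value of Irs2, Akt2, Pik3r1, Pik3ca, Tbc1d4 and Cav1 was below every CC_s value for H3K27ac, against 17.5% of all genes.

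For H3K4me1 coverage away from promoters, the largest obesity difference of the 9 genes was at Irs1. Its peaks outside promoters covered 20.7, 16.4 and 16.6 kb in C and 2.06, 3.37 and 4.94 kb in H. In the cohort of 25 weeks they covered 24.2 and 31.1 kb in CC_l and 1.94, 18.7 and 23.1 kb in HH, again with no obese library at the level of its controls. HH lay wholly below CC_l at 11.8% of all genes, and H wholly below C at 12.2%. Total H3K4me1 coverage over the genome was 31.5 to 40.9 Mb in H and 29.5 to 47.6 Mb in C, and 58.3 Mb in HH replicate 1 and 102 and 107 Mb in the other HH libraries against 81.3 and 96.5 Mb in CC_l. The obesity difference was −1.74 (SE 0.604, limma adjusted p = 0.108), with an exact two-sided permutation p of 0.02 (adjusted 0.197), so it was not called. After quantile normalization it was −1.59 (limma adjusted p = 0.0498), under the threshold. HH replicate 1, the lowest of its group, had 4 of the 12 adipocyte markers marked by H3K4me1, with 15.2 kb against 92.6 to 105 kb in CC_l, and the part of this in the result was not tested. Values after weight loss overlapped the controls, with 13.4, 4.53 and 1.34 kb in HC, 3.02, 10.8 and 23.5 kb in CC_s, 2.89, 39.5 and 8.90 kb in HHC, and 16.7 and 43 kb in CCC.

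**Figure D4:**
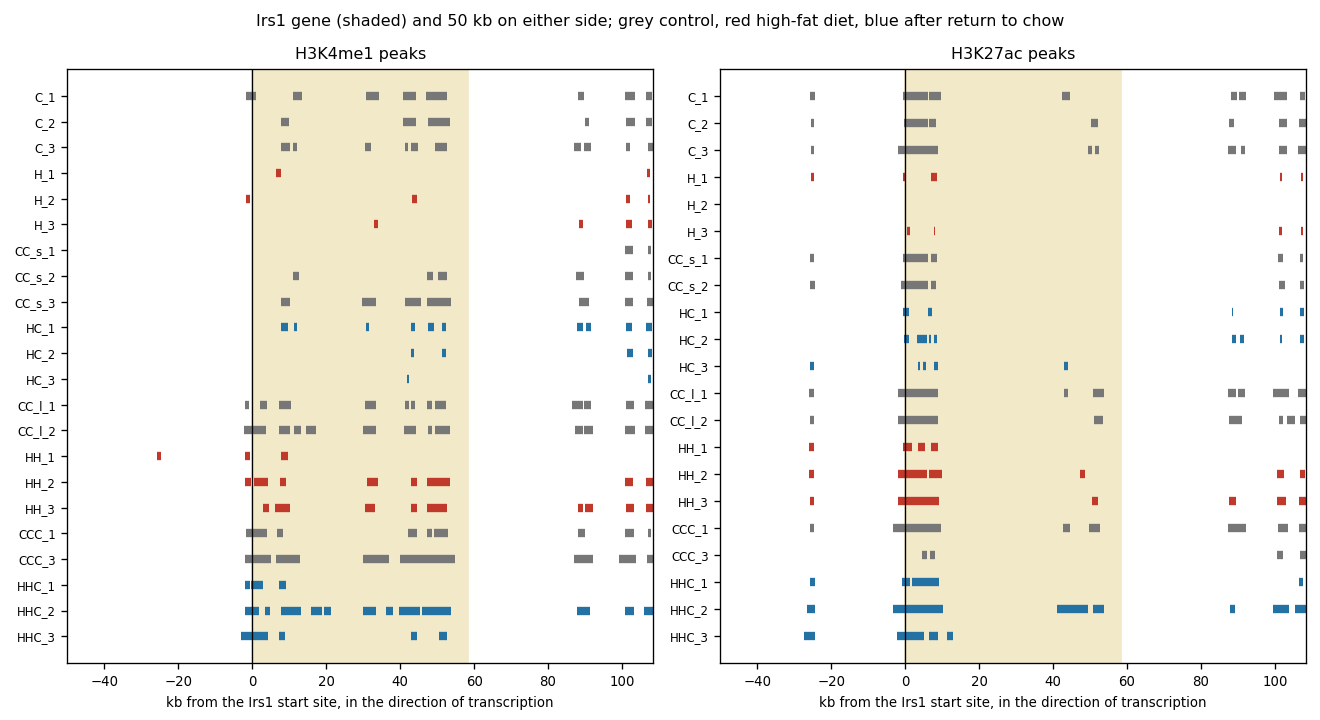
Called peaks of each library (rows, ordered by diet group) along the Irs1 locus, in kb from the Irs1 start site (horizontal axes), for H3K4me1 on the left and H3K27ac on the right, with the gene shaded. The rows of H hold few peaks, covering 2.06 to 4.94 kb of H3K4me1 and 0 to 2.37 kb of H3K27ac outside promoters, where those of C hold 16.4 to 20.7 kb and 13.2 to 17.8 kb.

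No member was called for H3K4me1 coverage, with 3.56% of all genes called for obesity and 6.27% for weight loss. Every H value of Irs1, Irs2, Akt2, Pik3r1 and Cav1 was below every C value, against 12.2% of all genes. At promoters no member was called for H3K4me1 either, with 1.96% of all genes called for the obesity difference and 7.09% for weight loss.

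At the Slc2a4 promoter, an H3K4me1 peak was called in 6 of 12 libraries of diet groups and in 9 of 10 control libraries. Of the other members only Irs2 leaned the same way, with 8 of 12 and 8 of 10. Insr (12 of 12 and 7 of 10), Cav1 (10 of 12 and 7 of 10) and Pik3r1 (12 of 12 and 9 of 10) leaned the other way. How many of all genes show such a split was not tested. The Slc2a4 counts are therefore a description. The widths were 12.4 kb, 6.01 kb and no peak in C, no peak in any H library, 0.692, 4.73 and 12.3 kb in CC_s, and 5.85 kb in HC replicate 1 with none in the others. In the longer cohort they were 11.7 and 12.9 kb in CC_l, no peak, 7.19 and 13.1 kb in HH, 13.3 and 13.8 kb in CCC, and 7.34, 13.7 and 2.32 kb in HHC. Libraries of the same diet group thus spread from no peak to control width. The obesity difference of −2.28 had a large error (SE 0.927, limma adjusted p = 0.255) and an exact two-sided permutation p of 0.14.

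H3K27me3, the Polycomb mark, was rare at these promoters. At Irs1, Irs2, Slc2a4 and Cav1 more of the marked libraries came from diet groups than from controls. Irs1 carried a peak in 8 of 20 libraries, 7 of 10 from diet groups and 1 of 10 from controls, while Irs2 and Slc2a4 carried one in 6 libraries each, 5 from diet groups and 1 from controls. Cav1 was marked in 10, with 7 from diet groups and 3 from controls. The share of all genes with such a split was not tested, so these counts are a description. Tbc1d4 was marked in 2 libraries, Insr and Akt2 in 1 each, and Pik3r1 and Pik3ca in none, so that only Irs1, Irs2, Slc2a4 and Cav1 entered the fit.

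Irs1 measured 7.86, 2.54 and 3.80 kb of H3K27me3 in HHC and had no peak in CCC. The other marked libraries were H replicate 2 with 1.48 kb, HC replicate 3 with 0.709 kb, both HH libraries with 7.23 and 1.07 kb, and CC_l replicate 1 with 8.41 kb, the only control. Its weight-loss difference was 1.84 (SE 0.664, limma adjusted p = 0.0956) and its HHC minus CCC difference 3.26 (SE 0.99, limma adjusted p = 0.108), neither of them called. None of the 4 genes was called, with 3.42% of all genes called for obesity, 4.73% for weight loss and 0.163% for HHC minus CCC.

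By presence, a promoter counts as gained when every library of a diet group and none of its controls has a peak. Slc2a4 was gained in HH, with 1.87 and 2.16 kb against no peak in CC_l, where 5.52% of the genes marked in either group were gained or lost. Irs1 and Cav1 were gained in HHC, where the share was 5.6%, with Cav1 at 3.59, 1.14 and 0.975 kb and no peak in CCC. No member was gained or lost in H, where the share was 11%, or in HC, where it was 3.34%. For H3K27ac no member promoter was gained or lost, with shares over all genes of 4.24% for H, 1.37% for HH, 1.48% for HC and 3.85% for HHC. For H3K4me1 there was none either, with 3.26%, 4.84%, 1.03% and 7.25% in the same order.

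**Figure D5:**
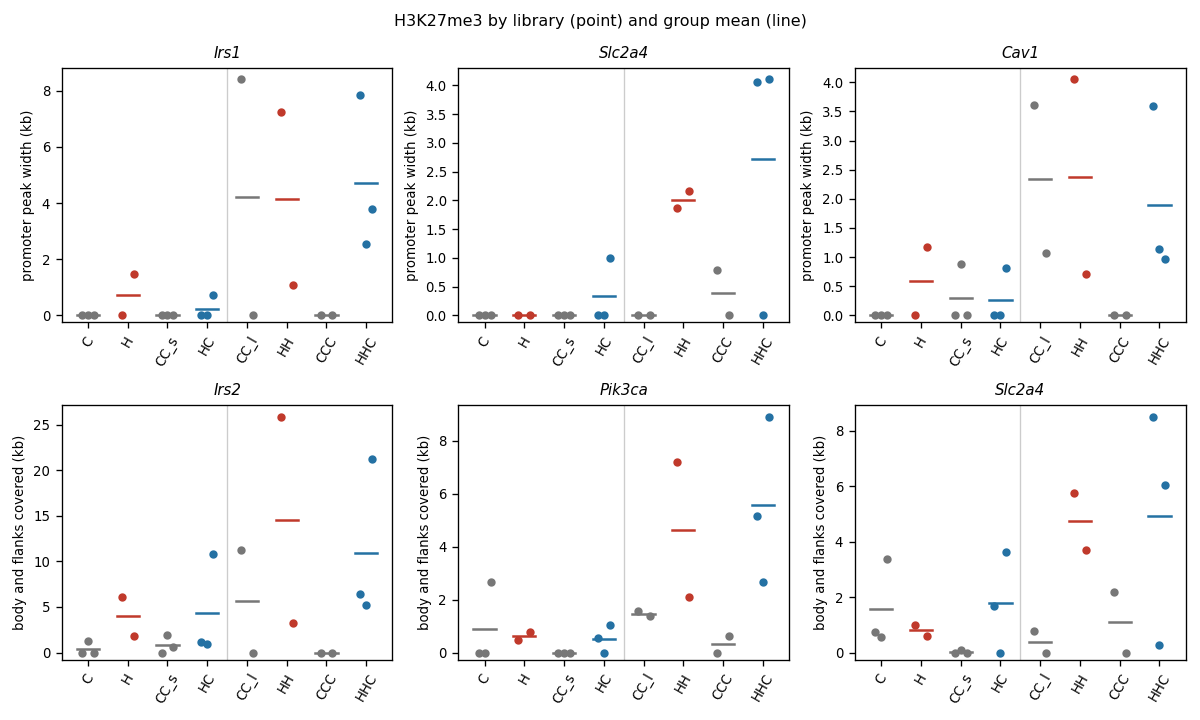
H3K27me3 by library (points) and group mean (lines) in the 8 diet groups: summed promoter peak width in kb at Irs1, Slc2a4 and Cav1, and kb covered in gene body and flanks at Irs2, Pik3ca and Slc2a4. The HHC libraries lie above both CCC libraries for Irs1 and Cav1 promoters and for Irs2 and Pik3ca coverage.

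In gene bodies and flanks, H3K27me3 coverage was called higher after weight loss at Irs2 and Pik3ca, where 6.34% of all genes were called higher. At Irs2 the peaks covered 6.45, 5.22 and 21.2 kb in HHC and none of the locus in CCC, and 1.17, 0.943 and 10.8 kb in HC against 0, 1.90 and 0.654 kb in CC_s. The HHC libraries were clear of their controls and the HC libraries were not, and the weight-loss difference was 2.23 (SE 0.622, limma adjusted p = 0.0221). Pik3ca had 5.14, 2.66 and 8.91 kb in HHC against 0 and 0.615 kb in CCC, and 0.53, 0 and 1.05 kb in HC against none in any CC_s library, with a difference of 1.40 (SE 0.463, limma adjusted p = 0.0454). HHC minus CCC alone was called higher at the same genes, with 3.34 at Irs2 (SE 0.928, limma adjusted p = 0.0257) and 2.25 at Pik3ca (SE 0.69, limma adjusted p = 0.0382), against 7.78% of all genes.

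The medians of all genes were 0.13 for weight loss and 0.51 for HHC minus CCC. After quantile normalization the weight-loss difference was 2.24 at Irs2 (limma adjusted p = 0.0151) and 0.93 at Pik3ca (limma adjusted p = 0.129). HHC minus CCC was then called at neither gene, nor was it without HHC replicate 1 or HHC replicate 3. Both genes lost both calls with equal numbers of peaks, the strongest peaks only, flanks of 10 kb or no filter on marked libraries. For the weight-loss difference no member was called without CC_s replicate 1, CC_s replicate 3, HC replicate 3, CCC replicate 1, CCC replicate 3 or HHC replicate 3. Every HHC value of Irs1, Irs2, Akt2, Pik3ca and Tbc1d4 was above every CCC value, against 29.4% of all genes. The obesity difference was called at no member, with 6.11% of all genes called. The adipocyte markers, which are active genes in these nuclei, had 6.56 to 45.2 kb of H3K27me3 in HHC and 4.61 to 9.02 kb in CCC, and their part in the result was not tested.

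Candidate enhancers were read as the merged peaks outside promoter windows at the 9 loci, 67 regions for H3K4me1 and 87 for H3K27ac. For H3K4me1, 2 of 35 regions marked in H or C were gained in H (4.69% of all such regions were gained or lost), 2 of 51 were gained and 1 lost in HH (7.69%), none of 40 changed presence in HC (1.88%), and 3 of 56 were gained and 2 lost in HHC (6.61%). For H3K27ac, 4 of 46 were lost in H (9.14%), 2 of 64 gained and 2 lost in HH (5.26%), 2 of 46 lost in HC (4.1%) and 1 of 75 gained in HHC (4.44%). These shares are near those of the whole genome, so the following regions are descriptions of single sites.

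A region upstream of Insr, at −8.87 kb from its start site (chr8:3287285-3289688), carried H3K4me1 in every control library of the longer cohort and in none of the high-fat groups. Its peaks measured 1.09 and 1.31 kb in CC_l, 1.77 and 2.01 kb in CCC and 0.832 kb in CC_s replicate 3, 5 of 22 libraries in all. No HH and no HHC library had a peak there. H3K27ac lay on it in CC_l, with 1.5 and 1.4 kb, and in C replicate 3, with 0.805 kb. The bases at the centre of the stretch shared by the control peaks, chr8:3288625-3288924 in GRCm38.p6, are printed on the minus strand, that of Insr, with capitals for the same motifs. They are 45.7% GC with 2 CpG and 2 CCAAT matches.
Insr upstream region: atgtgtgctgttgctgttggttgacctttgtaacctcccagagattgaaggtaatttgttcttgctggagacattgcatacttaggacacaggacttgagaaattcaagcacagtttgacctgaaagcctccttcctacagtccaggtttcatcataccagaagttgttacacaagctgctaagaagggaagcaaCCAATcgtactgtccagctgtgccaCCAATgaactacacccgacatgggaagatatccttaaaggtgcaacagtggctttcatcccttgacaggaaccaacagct

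At Pik3r1 a pair of regions beyond the 3′ end of the gene showed the reverse. The region chr13:101662000-101665061, 29.1 kb from the nearest Pik3r1 start site, carried H3K4me1 peaks of 1.90, 2.77 and 2.38 kb in HH and of 3.06, 1.40 and 2.43 kb in HHC. Beyond these, H replicate 2 had 1.64 kb, HC replicate 3 had 1.03 kb, and no control library had a peak. H3K27ac was less exclusive there, with a peak of 1.35 kb in CC_l replicate 1 beside those of HH, HHC and HC libraries. The neighbouring region chr13:101656245-101660097, at 34.5 kb, had H3K4me1 of 3.51, 2.60 and 2.83 kb in HHC, of 1.04 and 3.42 kb in HH replicates 1 and 2 and of 1.29 kb in H replicate 1, and again none in controls. Its H3K27ac peaks of 1.77, 1.51 and 3.01 kb in HHC were joined by those of 4 other diet libraries and by no control. In the same H3K4me1 libraries the macrophage markers summed to 11.8 to 20.4 kb in HHC and 3.29 to 10.6 kb in CCC. In HH they summed to 5.85 to 17.4 kb, and in CC_l to 9.26 to 11.2 kb. Endothelial markers had 6.02 to 9.94 kb in HH and 2.45 to 3.61 kb in CC_l, and 6.31 to 28.4 kb in HHC and 3.14 to 12.3 kb in CCC. Mesothelial markers had 2.41 to 5.55 kb in HH and 0 to 1.94 kb in CC_l, and 5.76 to 11.5 kb in HHC and 1.4 to 12.5 kb in CCC. The part of these cells in this pattern was not tested.

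The regions that lost H3K27ac in H lay at Irs1, Irs2, Pik3r1 and Tbc1d4. The Irs1 region chr1:82199266-82204080, 89.7 kb downstream of the start site, held 3.31, 1.43 and 3.19 kb in C and no peak in H. The chow controls CC_s had no peak there either, while HC replicates 1 and 2 had 0.335 and 2.25 kb. In the longer cohort CC_l had 4.04 and 3.45 kb, and HH had 1.9 kb in replicate 3 only. A stretch inside the Pik3r1 gene at chr13:101751113-101755395 held 1.90, 2.25 and 2.56 kb in C and none in H, and was marked in 15 of 21 libraries overall.

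Pik3r1 also shows how its promoters differ. Both were marked by H3K4me3 in 21 of 21 libraries, but H3K4me1 lay at the CpG-rich long promoter in 8 of 22 libraries and at the CpG-poor internal one in 20 of 22. At Pik3ca the downstream promoter window held an H3K4me3 peak in 3 of 21 libraries, so its values above come mainly from the upstream start.

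Of 56 other genes of the pathway, H3K4me3 promoter width was called lower in H than in C at 19, against 14.1% of all genes, and H3K27ac width at 6, against 6.91%, and none was called higher. For the obesity difference Sh2b2, an adaptor of the insulin receptor, was called lower for H3K27ac (−1.76, limma adjusted p = 0.0312). H3K4me1 at promoters was called higher after weight loss at 5 of 53 tested, where 7.09% of all genes were called in either direction, so the count is near that of the whole genome. These were Foxo1, the transcription factor that AKT keeps out of the nucleus (1.96, limma adjusted p = 0.00793), Vamp2, a vesicle SNARE (1.89, limma adjusted p = 0.0196), Inppl1, the lipid phosphatase SHIP2 (1.36, limma adjusted p = 0.0313), Ptpn1, the phosphatase that acts on the insulin receptor (1.89, limma adjusted p = 0.0316), and Ubxn4 (1.23, limma adjusted p = 0.037). By cohort, H3K4me1 promoter width was called at 0 of the 53 genes for HC minus CC_s and called higher at 6 for HHC minus CCC. These counts are a description, since no share of all genes is set beside them. The median HHC minus CCC difference was 0.562 over the 53 genes and 0.483 over all genes. H3K4me1 peaks covered 101.2 to 132.7 Mb in HHC and 71.09 to 121.9 Mb in CCC, and the part of this in the counts was not tested. Foxo1, Vamp2, Inppl1, Ptpn1, Ubxn4 and Slc2a1, which encodes the transporter GLUT1, were also gained promoters of H3K4me1 in HHC. In HHC against CCC, the comparison with the thin control library, gained H3K27ac promoters included Tbc1d1, Igf1r and Rictor. In H, Cbl was gained and Gys1 lost for H3K4me1, and Sort1 gained and Tbc1d1 lost for H3K27me3. No member was among the genes called for H3K4me1 promoters.

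The genes whose H3K27ac promoter width most resembled that of Slc2a4, by the rank of width within each of 21 H3K27ac libraries and over 12649 genes, were Prss51 (Spearman rho 0.881), Prss55 (0.877) and Fam120c (0.84). Prss51 and Prss55 are overlapping neighbours on chromosome 14. Among the members Irs2 stood closest at 0.67, followed by Insr at 0.645 and Irs1 at 0.514. The points share libraries and depth, and the values are a description.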

How the data were processed

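Per the labels and the study's methods, the authors trimmed reads with Trim Galore 0.6.6, aligned them with Bowtie2 2.4.4 to GRCm38 (mm10), flagged duplicates, made coverage tracks with bedtools 2.30 and called peaks in each library alone with SEACR 1.3 in stringent mode at a threshold of 0.01. The deposited lists give positions and 2 coverage signals, total and highest, which are not scaled between libraries, so signal was used only to order peaks within a library. Removal of blacklisted regions is named in the methods. SAMtools 1.13 was also used.

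Here, peaks overlapping a window by at least 1 bp were counted at their whole width in Python 3.11.15 (pandas 2.3.3, numpy 2.4.6). Log2 width (+500 bp) or coverage (+1 kb) was fitted with limma 3.58.1 in R 4.3.3 over all libraries of a mark, with a trended variance, for genes with a peak in at least 3 libraries. The study's own test needs read counts, which peak lists do not hold. The fit was tested on simulated data, drawn as normal values around the mean of each gene with known differences added. These held no shift of whole libraries and no absent peaks, so the test does not bear on differences in depth. Samples were grouped by title. The labels and the study call the libraries of a group biological replicates. Where neither says that these came from separate mice, p-values measure only the spread between these samples. Members, marker lists and the list of other pathway genes were chosen with earlier results of these data known. The 9 members are all named, and pathway genes only where called or where gained or lost, apart from a result that is not reported here. Alternatives were quantile normalization, equal numbers of peaks per library, the strongest peaks only, other windows, filters and pseudocounts, the treatment field as group, a replicate block, ranks of signal, and leaving out each library.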

Additional observations from a re-analysis of the deposited data

Results flagged for a closer look

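One member value differed between the cohorts. For the H3K4me3 promoter width of Insr, H minus C and HH minus CC_l differed between the cohorts by −1.87 on the log2 scale (SE 0.336, limma adjusted p = 0.0392), the H libraries lying below C and the HH libraries above CC_l. Leaving out 1 library at a time gave differences from −2.01 to −1.73, and the adjusted p was over the threshold without any of C replicates 1, 2 and 3, H replicate 3, CC_l replicate 1, HH replicate 2 or HH replicate 3. Whether the labels or the depth of the libraries bear on it was not tested beyond the values given with the result.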

How the results depend on the processing

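The counts of members called were recomputed under 377 other settings, of which 340 left the count within 1.5 times the main value, and under 1135 omissions of a library, of which 1061 did, but 41 of the 54 counts are 0 members in the fit as reported. Of the settings for the 34 called differences of single members, 140 of 241 kept the direction and the call, as did 572 of 710 omissions. Counts are given in the order H3K4me3 promoters and coverage for H minus C (6 and 7 members), then H3K27ac promoters and coverage for H minus C (6 and 7), H3K27ac coverage for obesity (4), and H3K27me3 coverage for HHC minus CCC and weight loss (2 and 2). With equal numbers of peaks they were 3, 3, 3, 2, 2, 0 and 0, H3K4me3 coverage for weight loss had 1 in place of 0, member promoters gained or lost for H3K4me1 2 in place of 0, and regions gained or lost 6 in place of 10 for H3K4me1 and 2 in place of 11 for H3K27ac. With quantile normalization they were 1, 1, 1, 1, 0, 0 and 1, H3K4me3 coverage had 1 for HHC minus CCC and 3 for weight loss, and H3K4me1 coverage 1 for obesity. With a replicate block H3K4me3 promoters had 3 for H minus C, H3K27ac coverage 0 for obesity, H3K27me3 promoters 1 for HHC minus CCC and H3K27me3 coverage 4 for weight loss, and the cohort difference of Insr for H3K4me3 was −1.73 (limma adjusted p = 0.153). Whether the numbers pair the libraries is not known. Deviations of same-numbered libraries correlated over 0.1 in 6 of 36 pairs for promoter width and 10 of 36 for coverage. For H3K27ac coverage the pairs of HH and CC_l stood at 0.265 and 0.154, and those of H and C at −0.0308, −0.0497 and −0.0654. With the strongest peaks only, H3K4me3 coverage had 4 for H minus C and 1 for weight loss, H3K27me3 coverage 0 and 0, and H3K4me1 promoters 1 gained or lost. Ranks of signal, chosen after seeing the data, gave 2 for H3K4me3 and 0 for H3K27ac promoters, a window of 500 bp gave 3 for H3K27ac promoters, and flanks of 10 kb or no filter gave 0 and 0 for H3K27me3 coverage. The treatment field changed no count. It could hardly do so for H minus C, the only comparison with H3K4me3 calls in the main fit, since the 4 libraries concerned are outside H and C. The cohort difference of Insr, which does use them, became −1.13 (limma adjusted p = 0.152). Leaving out 1 library gave 2 to 7 members for H3K4me3 promoters in H minus C, 0 to 1 for HHC minus CCC and 0 to 2 for weight loss, and for H3K4me3 coverage 3 to 8, 0 to 1 and 0 to 1. For H3K27ac promoters it gave 0 to 8 in H minus C, 0 to 4 in HHC minus CCC, 0 to 3 for obesity and 0 to 2 for weight loss, and for H3K27ac coverage 1 to 9, 0 to 2 and 0 to 8 for H minus C, HHC minus CCC and obesity. For H3K27me3 promoters it gave 0 to 2 for HHC minus CCC and 0 to 1 for weight loss, and for coverage 0 to 5, 0 to 1 and 0 to 6 for HHC minus CCC, obesity and weight loss. Gained or lost promoters ranged from 0 to 3 for H3K27ac, 0 to 2 for H3K4me1 and 3 to 5 for H3K27me3, and regions from 10 to 17 for H3K4me1 and 11 to 17 for H3K27ac. One difference reversed, Pik3ca H3K4me3 coverage in H minus C, which was −1.55 and became 0.069 with equal numbers of peaks. The cause was not tested. Where an omission left 1 library in a group, that library was assumed to vary like the other groups. Read depth limits every absence of a peak.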
